A study of Arabidopsis thaliana with 16 samples.

Results

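Gene expression in Arabidopsis thaliana seedlings harvested 6 days after transfer to a new plate was compared with that in seedlings harvested 3 days after it, in plants in which no microRNA had been induced. The arrays were chosen by their titles: 3 arrays of day 6 (amiR-tor line 9 without inducer, empty vector without inducer, and empty vector with estradiol) and the 3 arrays of day 3 from the same lines and treatments, 6 of the 16 arrays of the study. Each day 6 array was paired with the day 3 array of its line and treatment. All plants were in the Col-0 background. The line amiR-tor 9 carried an artificial microRNA, switched on by estradiol, that targets TOR, a kinase at the centre of growth control, and the empty-vector (EV) plants carried the inducible vector pER8 without it. Seeds had germinated under continuous light on medium with hygromycin, and seedlings of 2 weeks were then moved to plates without inducer or, for the induced empty vector, with 20 µM estradiol. The labels disagree in places, since the series title names another gene and some tags of the empty-vector samples mention a microRNA, so the groups rest on the sample titles.

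The older seedlings had also spent longer on the new plate, and age and time since transfer cannot be told apart. The 3 arrays of a day came from only 2 genotypes, the empty vector being present with and without estradiol. Nothing in the labels says that arrays came from separate cultures, so the p-values measure the spread between these samples, which may be technical. No probe set was listed for TOR in the names used here, so the level of its transcript in uninduced line 9 was not analysed here.

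As seedlings age, leaves pass from cell division to expansion and then to maturity, and the plant moves toward flowering under the control of light, the circadian clock and sugars. Transfer to a new plate is itself a disturbance: handling and wounding are known to induce early stress genes within minutes, and fresh medium renews nutrients. Defensins such as PDF1.2, small antifungal peptides of the cell exterior, are switched on by jasmonate together with ethylene and serve as a standard readout of that pathway. Most photosynthetic subunits are encoded in the nucleus, while a smaller set, with ribosomal proteins and an RNA polymerase, is encoded in the plastid genome.

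The arrays were Affymetrix ATH1 arrays, and all values below are the authors' log2 values made by GCRMA, on which a difference of 1 is a 2-fold difference in signal. All 6 arrays were of the same kind: the 25S ribosomal RNA control read 11.41 to 11.87 on day 6 arrays and 11.39 to 11.99 on day 3 arrays. The 5′ actin control minus the 3′ one, a sign of RNA quality, was -1.92 to -1.43 at day 6 and -1.91 to -1.86 at day 3, the highest value being that of line 9 at day 6. Green-tissue markers were near the top of the scale on both days, with RCA, the activase of Rubisco, at 14.56 to 14.66 on day 6 and 14.56 to 14.65 on day 3. The root marker PYK10, a root beta-glucosidase, read 13.44 to 13.63 on day 6 and 13.34 to 13.70 on day 3. EXPA7, an expansin of root hairs, read 5.05 to 6.07 on day 6 and 5.82 to 6.15 on day 3. Only 3 of the 8 green-tissue markers, 2 of the 6 root markers and 0 of the 8 floral markers were on a named probe set. These are whole seedlings, and a change in the amount of a tissue and a change of RNA per cell cannot be told apart.

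Of the 13387 probe sets that were bright enough to test (a log2 value of 4 in at least 3 of the 6 arrays), none passed the test for a difference between the days. In the paired fit with limma, 0 probe sets (0%) passed a Benjamini-Hochberg adjusted p of 0.05, and the smallest adjusted p was 0.814. At an unadjusted p under 0.05 there were 731 probe sets (5.46%), 435 of them higher at day 6 (3.25%) and 296 lower (2.21%). The median size of a difference was 0.13 and its median standard error 0.14. Of all tested probe sets, 1607 were higher at day 6 in each of the 3 pairs (12.0%) and 1919 were lower in each (14.3%). A mean difference of 1 or more, in the same direction in all 3 pairs, was seen at 52 probe sets that were higher (0.388%) and 38 that were lower (0.284%). The genes below are therefore described by their values, and no gene is called changed. With 2 residual degrees of freedom a difference that misses the threshold is not shown to be absent.

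Among genes with a symbol, M17 had the highest moderated statistic upward. M17 is a late embryogenesis abundant gene, of a class of protective proteins best known from drying seeds. It read 7.53 in line 9, 7.10 in the empty vector and 7.15 in the empty vector with estradiol at day 6, against 5.53, 5.69 and 4.62 at day 3. Every day 6 array lay above every day 3 array. The difference was 1.98 ± 0.24 (SE, n = 3 pairs; limma unadjusted p = 0.000659, adjusted p = 0.814), or 3.94-fold. The other amiR-tor lines of the study, 17 and 20, are not in the comparison. Without inducer they read 7.88 and 6.87 at day 6, above all 3 day 3 arrays of the comparison.

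**Figure D1:**
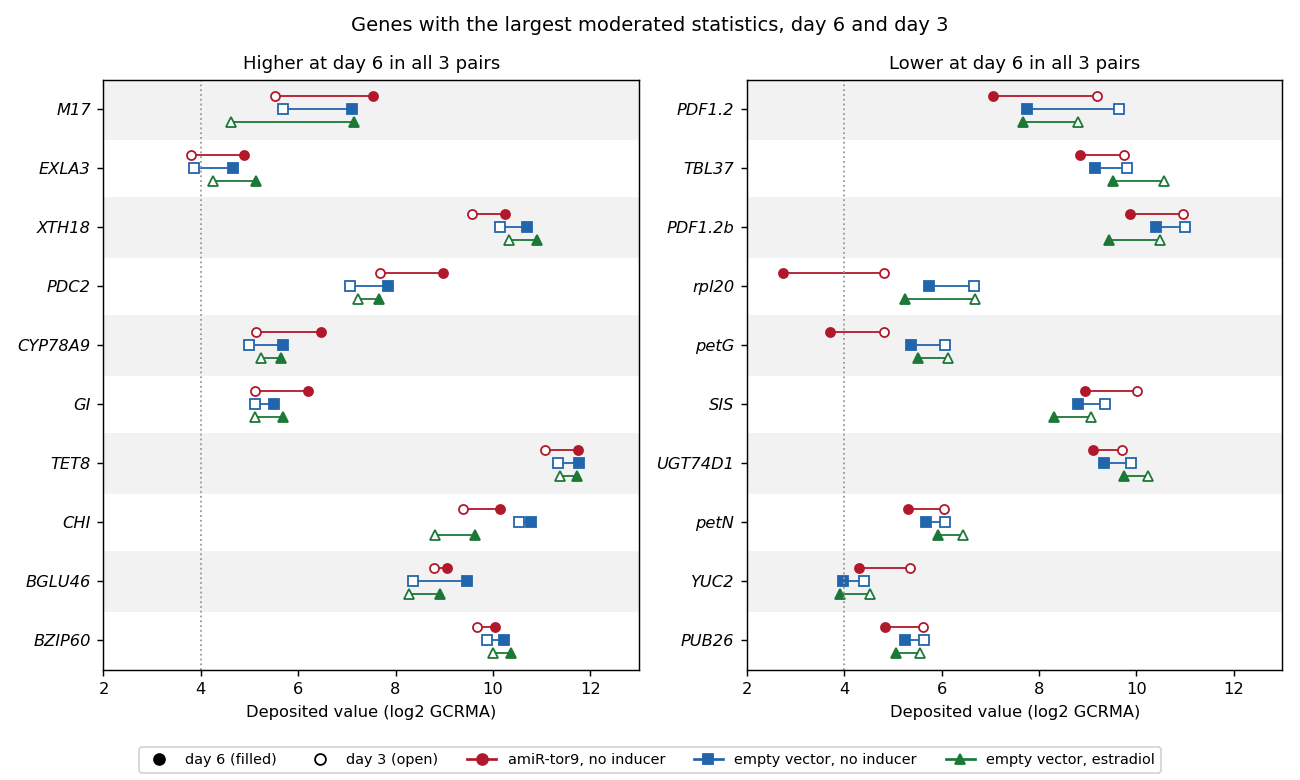
Deposited log2 GCRMA values of the 20 genes with a symbol that had the largest moderated statistics, 10 that were higher (left) and 10 that were lower (right) at day 6 in all 3 pairs. Filled symbols are day 6 and open symbols day 3, each line joins the arrays of 1 pair, and the dotted line marks the log2 value of 4 used to leave out dim probe sets; M17 and PDF1.2 have the largest mean differences among the nuclear genes shown, while rpl20 and petG of line 9 sit well below the empty vector on both days.

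Genes linked to the cell wall were present in the upward set, and TBL37 in the lower set is another. EXLA3, an expansin-like gene of the family of wall-loosening proteins, read 4.89 in line 9, 4.67 in the empty vector and 5.14 with estradiol at day 6, against 3.79, 3.86 and 4.24 at day 3, a difference of 0.94 ± 0.12. The days did not overlap, although the values were low and lines 17 and 20 at day 6 read 4.24 and 3.90, within the day 3 range. XTH18, an enzyme that cuts and rejoins xyloglucan chains of the wall, read 10.25, 10.70 and 10.90 at day 6 against 9.57, 10.15 and 10.33 at day 3, in the same order of arrays. Its difference of 0.60 ± 0.11 was of similar size in the 3 pairs, but the days overlapped because line 9 was the lowest array on each day. Lines 17 and 20 at day 6 read 10.12 and 8.96 for XTH18, the latter below all 3 day 3 arrays. BGLU46, a beta-glucosidase that releases lignin precursors from their glucosides, was higher by 0.68 ± 0.20, with 9.06, 9.47 and 8.92 at day 6 against 8.79, 8.35 and 8.28 at day 3, without overlap. For BGLU46 lines 17 and 20 at day 6 read 8.54 and 7.99, and line 20 was again below all 3 day 3 arrays.

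GI (GIGANTEA) links the circadian clock to photoperiodic flowering. It read 6.21, 5.51 and 5.68 at day 6 in line 9, the empty vector and the empty vector with estradiol, against 5.11 on each of the 3 arrays of day 3, a difference of 0.69 ± 0.18. The equal day 3 readings may be a lower limit of this probe set, where a difference would be compressed. Lines 17 and 20 without inducer read 5.77 and 5.53 at day 6, above that value. The time of day of the harvests is not given in the labels. GI was the only kept gene of the clock list.

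The next genes of the upward set have different roles. CYP78A9, a cytochrome P450 that promotes growth of reproductive organs, was higher by 0.81 ± 0.21, with 6.46, 5.69 and 5.65 at day 6 against 5.14, 4.98 and 5.24 at day 3, without overlap. PDC2, a pyruvate decarboxylase of ethanolic fermentation, differed by 0.84 ± 0.19, and its days overlapped. It stood highest in line 9, at 8.97 on day 6 and 7.69 on day 3. TET8, a tetraspanin of secreted vesicles, was nearly level across arrays at 11.74, 11.77 and 11.72 on day 6, against 11.07, 11.33 and 11.37 on day 3 (0.49 ± 0.12).

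The other 2 genes of the upward set are linked to defence and stress. CHI, annotated as a putative chitinase, differed by 0.61 ± 0.16 and overlapped between the days, with 9.63 to 10.79 at day 6 against 8.82 to 10.53 at day 3. BZIP60, a transcription factor of the unfolded protein response in the endoplasmic reticulum, showed the most even differences of the set, 0.36, 0.35 and 0.37 in the 3 pairs (0.36 ± 0.11). All of its day 6 arrays were above its day 3 arrays, the lowest at 10.04 against a highest of 10.01. Unadjusted p-values in the upward set ran between 0.000659 and 0.0237 and adjusted p-values between 0.814 and 0.828 (limma).

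In the opposite direction the moderated statistic was largest for PDF1.2. It read 7.06 in line 9, 7.76 in the empty vector and 7.66 in the empty vector with estradiol at day 6, against 9.19, 9.64 and 8.79 at day 3. The days did not overlap, and the difference was -1.71 ± 0.23 (SE, n = 3 pairs; limma unadjusted p = 0.000956, adjusted p = 0.814). Yet lines 17 and 20 without inducer read 11.05 and 10.41 at day 6, above every day 3 array of the comparison.

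PDF1.2b, a close relative measured by a probe set whose suffix marks probes shared with other transcripts, was also lower in each pair. It read 9.86, 10.40 and 9.44 at day 6 against 10.96, 10.99 and 10.48 at day 3 (-0.91 ± 0.15). Because the probes may be shared, the values of PDF1.2 and PDF1.2b are not independent. Lines 17 and 20 read 12.79 and 12.20 at day 6, and with these arrays added in an unpaired fit the difference of PDF1.2b was 0.13, of the opposite sign. Other defensins, looked up after the values were seen, did not share a direction. Of the 7 kept genes with a symbol starting with PDF, PDF1.2 and PDF1.2b included, 2 had a higher mean at day 6. In this set 3 were lower in all 3 pairs, where 14.3% of all probe sets were, and the median was -0.27. PDF2.1 differed by -0.61 ± 0.26, PDF1.4 by 0.55 ± 0.45 and PDF2.5 by 0.04 ± 0.19. In PDF1.4 the 3 pairs gave 1.85 in line 9, -0.29 in the empty vector and 0.10 with estradiol.

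Auxin-linked genes were present on the lower side. YUC2, a flavin monooxygenase of auxin synthesis, read 4.29, 3.97 and 3.90 at day 6 against 5.35, 4.40 and 4.52 at day 3, a difference of -0.70 ± 0.16 without overlap but close to the level at which probe sets were left out as dim. UGT74D1, a glucosyltransferase of auxins, read 9.11, 9.34 and 9.74 at day 6 against 9.71, 9.88 and 10.24 at day 3. Its 3 pairs gave -0.60, -0.54 and -0.50, a narrow spread, although the days overlapped slightly between arrays of different pairs.

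TBL37 belongs to a family that adds acetyl groups to wall polysaccharides. It read 8.84, 9.14 and 9.52 at day 6 against 9.75, 9.81 and 10.57 at day 3 (-0.88 ± 0.13), without overlap. In the TBL family as a whole, gathered after the values were seen, 4 of 15 kept members had an unadjusted p under 0.05, where 5.46% of all probe sets did. Of the other families grouped by symbol, ALDH, ATG, IQD, PRA, SCPL, UBP and VPS had 0 such members. TBL37, TBL26 (-0.56 ± 0.15) and TBL25 (-0.30 ± 0.11) were lower and TBL39 was higher (0.39 ± 0.14). The family median was -0.16, against -0.01 over all probe sets.

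SIS, named for its induction by salt and its many serines, read 8.94, 8.80 and 8.31 at day 6 against 10.02, 9.35 and 9.07 at day 3 (-0.80 ± 0.15). Its days did not overlap, and lines 17 and 20 at day 6, at 8.74 and 7.98, were also below all 3 day 3 arrays. PUB26, a U-box ubiquitin ligase, was lower by less, at 4.83, 5.25 and 5.05 on day 6 against 5.62, 5.63 and 5.55 on day 3 (-0.56 ± 0.13), again without overlap. The remaining genes of the lower set were the plastid genes rpl20, petG and petN, described with their genome below. Unadjusted p-values in the lower set ran between 0.000956 and 0.0110.

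Groups were free of overlap between days in 7 of the 10 genes on each side, where 3.84% of all probe sets lay wholly above and 4.23% wholly below the day 3 arrays. These genes were picked for such differences, so nothing is read from that share. The day 6 arrays of lines 17 and 20 without inducer were not used in the choice, though they are set here against the same day 3 arrays. Genes picked partly for low or high values on those day 3 arrays tend to have other arrays on the same side. The shares of all probe sets are thus no fair background for the counts that follow, and nothing is read from them. Both were above all 3 day 3 arrays for 4 of the 10 upward genes (M17, PDC2, CYP78A9 and GI), where 11.0% of all probe sets were. Both were below for 2 of the 10 lower genes (SIS and petN), where 9.76% of all probe sets were, and above for 3 (PDF1.2, PDF1.2b and rpl20). For the other genes the 2 arrays were not both on the same side of all day 3 arrays. The day 3 arrays of lines 17 and 20 are of another kind, with 25S control values of 5.32 to 6.03, so no day difference of those lines is used in the main fit. An alternative fit, given at the end, takes these arrays in.

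Some of the steadiest probe sets carried no gene symbol, and these were chosen after their values were seen. Locus AT1G56300 had the smallest p of all probe sets, with 6.51, 6.06 and 5.76 at day 6 against 4.63, 4.63 and 3.69 at day 3 (1.79 ± 0.17; limma unadjusted p = 0.000201, adjusted p = 0.814). The unlisted probe sets 252549_at (1.29 ± 0.12) and 253416_at (1.30 ± 0.14) came next among those that were higher. Lines 17 and 20 at day 6 read 5.82 and 4.97 for 252549_at, against 5.23 to 5.87 on the day 3 arrays of the comparison. For 253416_at they read 7.75 and 7.40, against 6.32 to 8.70. Neither probe set was thus above its day 3 range in those lines. Locus AT2G43800 differed by 0.90, 0.97 and 0.98 in the 3 pairs. The unlisted probe set 266814_at read 2.12, the floor of the deposited values, on all 3 day 6 arrays, against 5.64, 4.02 and 4.04 at day 3. It was also at 2.12 in lines 17 and 20 at day 6, but line 20 read 2.12 at day 3 too, where line 17 read 4.17. Probe set 245276_at, likewise unlisted, gave -2.19, -1.31 and -2.01 in the 3 pairs, which the fit summed up as -1.84 ± 0.21. The day 6 arrays of lines 17 and 20 read 5.51 and 5.06 for AT1G56300, 5.48 and 6.42 for AT2G43800, and 7.15 and 6.21 for 245276_at. For AT2G43800 the 5.48 of line 17 lay within the range of the day 3 arrays of the comparison. None of these probe sets passed the adjusted threshold.

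The 3 pairs differed in how far their arrays lay apart. The SD of the differences between days over all probe sets was 0.593 in line 9, 0.321 in the empty vector and 0.314 in the empty vector with estradiol. A difference of 1 or more was seen at 1045 probe sets in the line 9 pair (7.81%), at 205 in the empty vector (1.53%) and at 171 with estradiol (1.28%). Across the 13387 probe sets the differences of line 9 had a Pearson correlation of 0.05 with those of the empty vector and of 0.13 with those of the empty vector with estradiol. Between the 2 empty-vector pairs it was 0.18, and these pairs share a genotype. Probe sets are not independent replicates, and these correlations are descriptions.

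**Figure D2:**
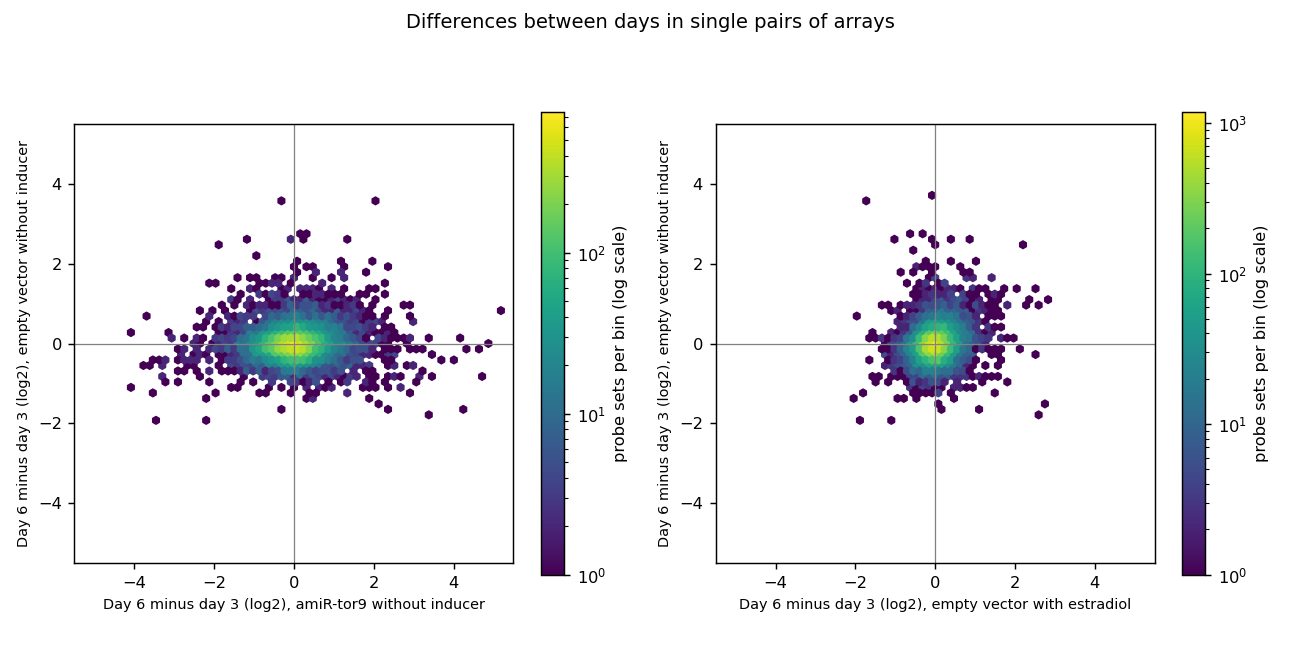
Day 6 minus day 3 (log2) of each of the 13387 kept probe sets in 1 pair of arrays against another, with colour for the number of probe sets in a bin on a log scale. The left panel sets the empty vector without inducer against line 9 without inducer and the right panel sets it against the empty vector with estradiol; the cloud is wider along the line 9 axis (SD 0.593) than along the empty-vector axes (SD 0.321 and 0.314), with little slope in either panel.

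Several genes with a large difference in 1 pair had a small or opposite difference in another. These genes were chosen by their differences within a pair, after the values were seen, and each is a difference of 2 arrays with no test. Among nuclear genes with a symbol, the largest upward differences in line 9 were those of CHX16, a cation/proton exchanger, at 4.26 (EV -0.14, EV with estradiol 1.51), cwINV6, named as a cell wall invertase, at 3.05 (0.60 and 0.61), and PUB23, a U-box ubiquitin ligase that dampens immune signalling, at 2.90 (0.89 and 0.53). Both cwINV6 and PUB23 were thus higher at day 6 in all 3 pairs, with most of the difference in line 9. MSRB6, a methionine sulfoxide reductase, gave -1.85 in line 9, and 0.98 and 0.95 in the empty vector without and with estradiol. CCOAMT, annotated as a caffeoyl-CoA methyltransferase, gave 2.59 in the empty vector, -0.08 in line 9 and -1.04 with estradiol. ARR15, a cytokinin-induced response regulator, was higher in both empty-vector pairs (1.21, and 1.41 with estradiol) and lower in line 9 (-0.45).

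Only 14 genes with a symbol had a mean difference of at least 1 in the same direction in all 3 pairs. On the higher side these were M17, PUB23, cwINV6, STZ and PRX52, and on the lower side PDF1.2, CML41 and 7 plastid genes. STZ, a zinc finger repressor induced by many stresses, read 9.79, 10.02 and 9.15 at day 6 against 7.47, 9.29 and 8.90 at day 3, so that line 9 at day 3 stood apart from the other arrays. PRX52, a peroxidase linked to lignin, differed by 2.44 in line 9 and by 0.35 and 0.31 in the empty vector. CML41, a calmodulin-like protein, was lower in all pairs, with differences of -1.06, -0.38 and -1.58, at signals of 2.45 to 5.45.

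The genes were also described by 32 lists of pathways and cell functions, of which 89 genes were measured above the dim level. Of these 89 genes, 0 passed the adjusted threshold (0% of all probe sets did), 6 had an unadjusted p under 0.05 (XTH18, PDF1.2, GI, COR15B, EIN3 and GRX480; 5.46% of all probe sets did), 14 were higher in all 3 pairs and 14 were lower in all 3. Against the 12.0% and 14.3% of all probe sets that were higher or lower in all pairs, these counts are near the background. The medians of the 16 lists with 3 or more measured genes lay between -0.39 and 0.36.

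**Figure D3:**
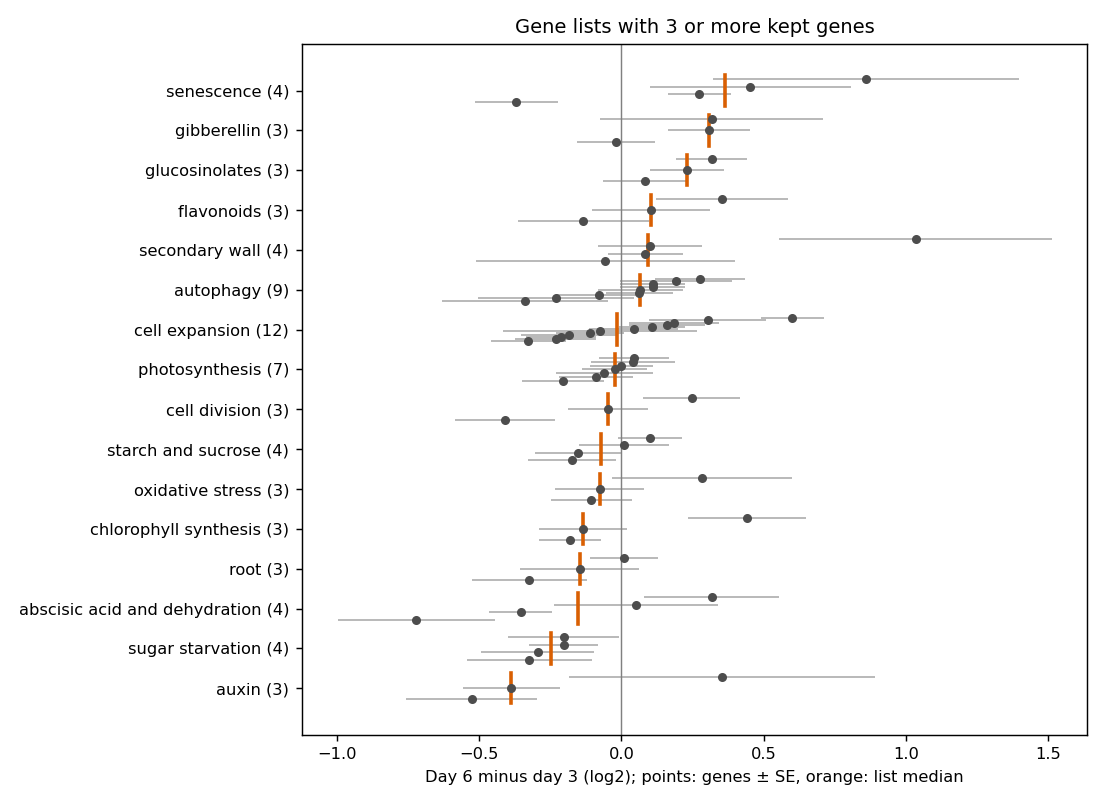
Day 6 minus day 3 (log2, paired fit) of the members of the 16 gene lists with at least 3 kept genes, sorted by median. Points are genes with their SE (n = 3 pairs), orange bars are list medians, and the number of genes is in brackets; most members lie close to zero, the photosynthesis genes between -0.21 and 0.04, and PRX52 of the secondary wall list lies farthest out at 1.03 with a wide SE.

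Nuclear photosynthesis genes showed small differences. The 7 measured genes had differences of -0.21 to 0.04 and a median of -0.02, and the light-harvesting genes LHCB4.1, LHCB4.2 and LHCB4.3 gave -0.02, 0.04 and 0.04. RCA gave 0.00 ± 0.11 and PRK, the phosphoribulokinase of the Calvin cycle, -0.06 ± 0.17. PSAN, a subunit of photosystem I, was lower in all 3 pairs but by -0.21 ± 0.14. In chlorophyll synthesis, PORB, the light-dependent protochlorophyllide reductase, was higher by 0.44 ± 0.21 and HEMB1, an early enzyme of the pathway, lower (-0.18 ± 0.11). The PORB difference was 0.97 in the empty vector with estradiol and 0.22 and 0.13 in line 9 and the empty vector without it.

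Markers of leaf ageing did not move together. WRKY53, a regulator of leaf senescence, differed by 2.37 in line 9, by -0.33 in the empty vector and by 0.54 with estradiol, and WRKY6, another senescence-linked factor, by 1.47, -0.06 and -0.05. SAG101, a senescence-associated gene that also acts in immunity, was higher by a small and even amount, 0.27 ± 0.11. SAG29, a sugar transporter of the SWEET family, was lower, at 4.71, 4.90 and 5.83 on day 6 against 4.79, 5.36 and 6.40 on day 3 (-0.37 ± 0.15). The median of the 4 mean differences was 0.36. Taken within single pairs, the median was 0.84 in line 9, and -0.20 and 0.14 in the empty vector without and with estradiol.

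The sugar starvation list held genes of branched-chain amino acid breakdown, which plants use when sugar is short. Its 4 measured genes had negative means, with a median of -0.25. ETFQO, which passes electrons from that breakdown to the respiratory chain, gave -0.20 ± 0.12 and was lower in all 3 pairs. MCCA (-0.32 ± 0.22), IVD (-0.20 ± 0.20) and AKINBETA1, a subunit of the energy-sensing SnRK1 kinase (-0.29 ± 0.20), were higher at day 6 in the empty vector without inducer, by 0.24, 0.28 and 0.13, and lower in the other pairs. Starch and sucrose genes were between -0.17 (SWEET11, a sucrose exporter) and 0.10 (DPE1). The 9 measured autophagy genes, all of the ATG8 family that coats autophagosomes, had a median of 0.07. APG8A was at 0.28 ± 0.16 and ATG8H at -0.34 ± 0.29, and the ATG8H value rests on line 9 with -1.15.

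Wall and division genes were mixed. Of 12 measured cell expansion genes, 6 had positive and 6 negative means, with a median of -0.02. After XTH18, the smallest p was that of the expansin EXPA15, which was lower in all 3 pairs (-0.33 ± 0.13), while the expansin EXPA4 gave 0.04 ± 0.16. The Aurora kinases of mitosis went different ways, AUR1 at -0.41 ± 0.18 and AUR2 at 0.25 ± 0.17. HCT, an enzyme of lignin precursor synthesis, gave 0.08 ± 0.13.

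Hormone genes were few on the named part of the array. For auxin, the conjugating enzyme WES1 gave -0.53 ± 0.23, the auxin-induced factor HAT2 -0.39 ± 0.17 and the conjugating enzyme GH3.3 0.35 ± 0.54, the last of these with 1.36 in line 9 and -1.22 in the empty vector with estradiol. The gibberellin receptors GID1A, GID1B and GID1C were at -0.02 ± 0.14, 0.31 ± 0.14 and 0.32 ± 0.39. GID1C gave 1.41 in line 9, 0.03 in the empty vector and -0.49 with estradiol. For ethylene, the master transcription factor EIN3 read 10.40, 9.73 and 9.63 at day 6 against 9.93, 9.44 and 9.33 at day 3, higher in all 3 pairs (0.35 ± 0.11; limma unadjusted p = 0.0309, adjusted p = 0.828). The negative ethylene-response regulator RTE1 was at -0.23 ± 0.14. In the cytokinin list, ARR15 was at 0.72 ± 0.41 and RR16 at 0.12 ± 0.21.

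Stress and defence lists held PDF1.2 and STZ, given above, and a few further genes. COR15A and COR15B, cold- and dehydration-induced proteins of the chloroplast, were lower in all 3 pairs. COR15A read 4.27, 5.83 and 5.64 at day 6 against 5.76, 6.19 and 5.95 at day 3 (-0.72 ± 0.28), and COR15B differed by -0.35 ± 0.11 at signals of 3.67 to 4.36. The dehydrins LTI30 and COR47 of the same list gave 0.32 ± 0.24 and 0.05 ± 0.29. GRX480, a glutaredoxin induced by salicylate, was higher by 0.99 in line 9 and 1.2 in the empty vector but not with estradiol (-0.01). CML38, a calmodulin-like gene of wounding, read 8.71, 9.07 and 8.74 at day 6 against 8.54, 8.28 and 8.55 at day 3, without overlap (0.38 ± 0.17). THI2.1, a jasmonate-induced thionin, gave 0.17 ± 0.36.

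Smaller lists had 1 to 3 measured genes. For glucosinolates, BCAT4, an aminotransferase of methionine-derived compounds, was higher without overlap, at 11.17, 11.52 and 11.22 on day 6 against 11.04, 11.11 and 10.81 on day 3 (0.32 ± 0.12), and UGT74B1, a glucosyltransferase of the pathway, by 0.23 ± 0.13. The flowering genes AGL24 and AGL42 gave -0.31 ± 0.13 and 0.51 ± 0.29. The flavonoid enzymes DFR, UF3GT and UGT78D2 gave 0.10, 0.35 and -0.13. In the oxidative stress list GSTU25 gave 0.28 ± 0.32 and glutathione reductase GR1 -0.11 ± 0.14. The heat shock genes Fes1A and HSA32 were at 0.20 ± 0.25 and -0.23 ± 0.20, the iron regulator PYE at 0.19 ± 0.25 and the sulfur-responsive BGLU28 at -0.34 ± 0.32. Among root genes the root hair expansins EXPA7 and EXPA18 were at -0.32 ± 0.20 and -0.15 ± 0.21. The lists for nitrogen, phosphate starvation, floral organs, cuticle and housekeeping had 0 kept genes on a named probe set.

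The genes encoded in the plastid, looked up as a group after the values were seen, were mostly lower at day 6. Of 62 kept genes, 53 had a lower mean at day 6, 25 were lower in all 3 pairs (40.3%, against 14.3% of all probe sets) and 4 were higher in all 3. The days were free of overlap for few of the 62. All day 6 arrays lay below all day 3 arrays for 2 genes, where 4.23% of all probe sets did. They lay above for 0, where 3.84% of all probe sets did. At an unadjusted p under 0.05 there were 9 genes, all lower (14.5%, against 5.46% of all probe sets in either direction and 2.21% lower), and 0 passed the adjusted threshold. The median difference was -0.47, but it was -1.13 in line 9, -0.27 in the empty vector and 0.05 in the empty vector with estradiol. Without the line 9 pair the median was -0.08.

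**Figure D4:**
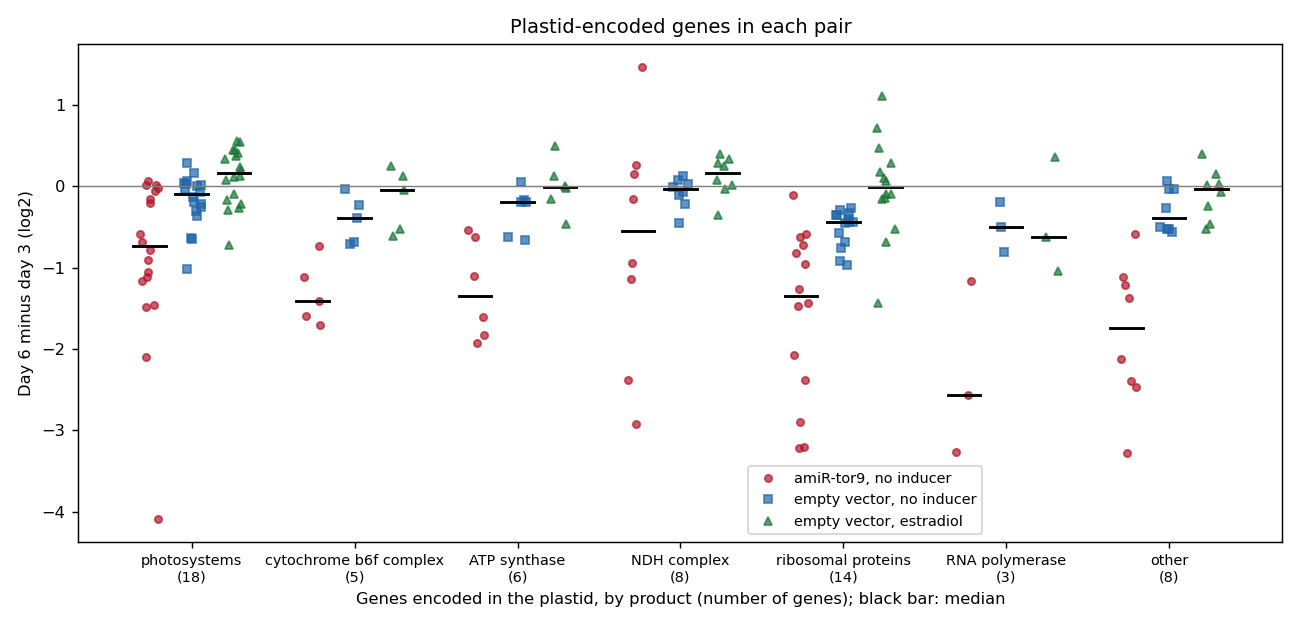
Day 6 minus day 3 (log2) of the 62 kept plastid-encoded genes in each of the 3 pairs, grouped by product, with the number of genes in brackets and black bars for medians. Line 9 (red) reaches down to -4.09 with a median of -1.13, the empty vector (blue) has a median of -0.27, and the empty vector with estradiol (green) lies around zero (0.05).

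The levels show where this difference lay. The median level of the 62 genes was 8.23 at day 6 against 9.82 at day 3 in line 9. It was 10.48 at day 6 against 10.62 at day 3 in the empty vector, and 10.49 at day 6 against 10.42 at day 3 in the empty vector with estradiol. Line 9 was thus the lowest on both days, and its day 6 array is also the array with the highest actin control value of the 6 (-1.43). Its part in the plastid values was not tested. Lines 17 and 20 without inducer had medians of 10.78 and 10.79 at day 6, near those of the empty vector. With these 2 arrays added in an unpaired fit the median difference was -0.14.

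Within the plastid genome the groups differed in size. The 14 ribosomal protein genes all had a lower mean (median -0.51), and 7 were lower in all 3 pairs. Their median was -1.35 in line 9, -0.44 in the empty vector and -0.015 in the empty vector with estradiol. rpl20, of the large ribosomal subunit, read 2.73, 5.74 and 5.24 at day 6 against 4.81, 6.66 and 6.68 at day 3 (-1.48 ± 0.25). The pairs gave -2.08, -0.92 and -1.44, and the days overlapped because line 9 was low on both. rps2 (-1.19 ± 0.41) and rps15 (-0.52 ± 0.17) were also lower in each pair. In the 3 genes of the RNA polymerase the median was -1.37, and by pair, in the same order, it was -2.56, -0.50 and -0.62. rpoC1 read 4.50, 8.59 and 8.30 at day 6 against 7.06, 9.09 and 9.34 at day 3, and rpoC2 2.82, 6.85 and 6.69 at day 6 against 6.09, 7.66 and 7.31 at day 3. For rpoA the empty vector with estradiol was higher at day 6, at 12.51 against 12.15 at day 3.

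Of the 5 genes of the cytochrome b6f complex, which passes electrons between the photosystems, 3 were lower in all pairs. petG read 3.70, 5.36 and 5.51 at day 6 against 4.82, 6.07 and 6.12 at day 3 (-0.81 ± 0.15). petN was without overlap, at 5.31, 5.67 and 5.92 on day 6 against 6.05, 6.06 and 6.44 on day 3 (-0.55 ± 0.13), and lines 17 and 20 at day 6 read 6.03 and 6.01. The 6 ATP synthase genes had a median of -0.62, with atpF at -0.64 ± 0.21, and the 18 photosystem genes -0.32. In line 9, the empty vector and the empty vector with estradiol, the ATP synthase medians were -1.355, -0.195 and -0.01. Those of the photosystem genes were -0.735, -0.10 and 0.165. Among photosystem genes psbA, the D1 protein of photosystem II, gave -0.39 ± 0.15, while psbM and psbL were higher in all 3 pairs, by 0.13 ± 0.13 and 0.19 ± 0.13. The NDH complex had members on both sides, ndhK at -1.06 ± 0.45 and ndhH at 0.60 ± 0.31. The bright transcript atpB read 14.19 and 14.26 in the empty vector without and with estradiol at day 6, against 14.38 and 14.13 at day 3. Among other bright transcripts, rpl32 read 11.80 and 12.41 at day 6 against 12.16 and 11.70 at day 3 in the same arrays.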

How the data were processed

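Total RNA of seedlings had been hybridised to single-colour arrays, 1 per sample. Per the submitters' processing notes, the authors used GCRMA, a background correction, normalization and summary of probes, to make the deposited log2 values; its version is not given in the sources used here. These ran from a floor of 2.12 to 15.24 on the 6 arrays. Close to the floor (within 0.1 of it) lay 30.8% to 31.2% of the probe sets of each array, and differences there are compressed. Arrays hold no counts, and it is their number that limits the precision. No further normalization was applied in the main fit.

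Control probe sets (64) were removed, as were 9359 of 22746 gene probe sets that did not reach 4 on at least 3 of the 6 arrays. Day 6 minus day 3 was estimated in R 4.3.3 by limma 3.58.1 (lmFit, eBayes, the pair as a block, 2 residual degrees of freedom), with Benjamini-Hochberg adjustment over the 13387 kept probe sets and a threshold of 0.05. The code of the fit was also run on simulated data with equal spread in the 3 pairs. The line 9 pair had a wider spread than the others, so nothing about the real arrays is read from that run. Pairs follow from shared line and treatment. The deviations of same-pair arrays from the day means correlated at 0.240, 0.082 and 0.272 for line 9, the empty vector and the empty vector with estradiol, where the highest correlation with an array of another pair was -0.058, 0.159 and 0.007. For the empty vector without inducer the other pair thus gave the higher value. No 2 of the 6 arrays looked like copies (highest correlation 0.991, 4.27% identical values).

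Of the gene probe sets 13513 were listed with 1 gene, 503 with several and 8730 not at all. Of those kept, 7160 had a locus and 1051 a symbol in the RefSeq gene table of TAIR10.1. The array's build is not stated, so no coordinates are given, and promoter sequences were not analysed here. A gene was represented by its brightest probe set. Since no probe set passed the adjusted threshold, the genes named are the 10 largest moderated statistics each way with a symbol and the same direction in all 3 pairs, and in each list the 2 smallest p-values. Other genes were named after their values were seen, either as stated in the text or to complete a list. A list entry counted where its symbol matched its locus: 663 of 671 did, 105 of them had a named probe set, and 89 passed the dim filter. Members and lists were chosen with earlier results of these data known. Alternatives were other filters, normalizations and priors, no block, each pair left out, and arrays of lines 17 and 20 added.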

Additional observations from a re-analysis of the deposited data

How the results depend on the processing

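The count of probe sets past the adjusted threshold was 0 in the paired limma fit and under all 11 alternatives, for all probe sets and for list members. The fit with no replicate block also gave 0; its count at an unadjusted p under 0.05 was 457, against 731 in the paired fit. That count was 886 without the line 9 pair, 427 without the empty-vector pair, 423 without the pair with estradiol, and 440 with the day 6 arrays of lines 17 and 20 added and the block dropped; under the others it lay between 631 and 1095. The 1095 came from adding both days of lines 17 and 20 with the kind of array as a covariate. In those lines day and kind of array coincide. The day differences of that fit therefore had to equal those of the main fit, and only their standard errors could change. When each pair was left out in turn, 13 of the genes named by the rule crossed zero (other genes were not run): ATPC1 (-0.165 to 0.015), PYE (-0.12 to 0.475), HCT (-0.03 to 0.145), Fes1A (-0.125 to 0.435), GSTU25 (-0.145 to 0.61), RR16 (-0.06 to 0.39), GID1C (-0.23 to 0.72), EXPA18 (-0.335 to 0.115) and ATG8H (-0.595 to 0.065) without the line 9 pair, THI2.1 (-0.35 to 0.5) without the empty-vector pair, and UGT78D2 (-0.435 to 0.07), HSA32 (-0.37 to 0.03) and GR1 (-0.215 to 0.025) without the pair with estradiol. With the day 6 arrays of lines 17 and 20 added and the block dropped, PDF1.2b (0.128), THI2.1 (-0.251), GSTU25 (-0.383) and EXPA18 (0.027) reversed. The cause was not tested. Without the line 9 pair the list medians of chlorophyll synthesis (0.03), gibberellin (-0.105) and secondary wall (0.2975) moved, and the plastid median was -0.0825. Few pairs, 2 genotypes and the floor limit what could pass, and most lists had few named genes.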
